A study of Drosophila melanogaster with 2 samples.

Results

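Glycolysis is the chain of cytosolic reactions that splits glucose into pyruvate and yields ATP and NADH. The 9 genes described here encode enzymes of this chain in Drosophila melanogaster: Pgi, Pfk, Tpi, Gapdh2, Gapdh1, Pgk, Pglym78, Eno and PyK. They are 9 of the 13968 protein-coding genes of the Ensembl release 115 annotation. The genes were chosen from results of these same data, among them the high signal of the peak at Gapdh2, and that pair of paralogues was chosen for its difference. Their peaks are therefore given as a description, with no test. A gene was counted as having a peak when a summit, the position of highest signal in a peak, lay inside the gene or within 500 bp of any of its transcription start sites (TSS). A summit within 500 bp of a TSS is called a promoter summit.

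In flies, glycolytic genes are known to be induced together around the middle of embryogenesis, under control of the nuclear receptor ERR, when the embryo turns to rapid sugar use. Several of the enzymes are encoded by more than 1 gene, with copies that differ in where they are used. Gapdh2 and Gapdh1 both encode glyceraldehyde-3-phosphate dehydrogenase, the enzyme of the oxidative step, which produces NADH.

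The data came from whole embryos aged 0 to 24 h of a strain with an insertion at CG14014, whose product was tagged with eGFP. The tagged protein was recovered with its DNA by an antibody against GFP, after sonication to fragments of 200 to 800 bp, in 2 biological replicates that form 1 group. Embryos of all these hours and all their tissues were mixed, so a peak cannot be placed in a tissue or a stage, and more cells with a bound site cannot be told apart from more protein per cell. The sources used here do not say what drives the fusion or whether it replaces the normal protein, and the possible control experiment named in the labels was not used here.

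The files were peak lists on build dm6. The conservative list, of peaks that recurred between both replicates, held 3216 peaks. The optimal list, cut from a ranking of the pooled reads, held 5675 and does not contain every conservative peak. The lists of replicate 1 and replicate 2 alone held 4617 and 2737 peaks. All these lists were cut by the authors at a global irreproducible discovery rate (IDR) of 0.01, the estimated share of irreproducible peaks down to a given rank. Behind each stood a much longer ranking without that limit. Peak signal is the authors' own value per peak on a scale not given in the sources used here, so it only ranks peaks within a list. Read depth is unknown.

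The product of CG14014 was found strongly at Gapdh2 and in no thresholded list at Gapdh1. The Gapdh2 promoter held the peak of rank 19 among 3216 conservative peaks, with a signal of 1305.9. The highest summit of Gapdh1 in the ranking behind that list had a signal of 34.0. Enolase (Eno), pyruvate kinase (PyK) and phosphoglycerate kinase (Pgk), enzymes of later steps, also had conservative peaks, with signals of 487.2, 172.5 and 215.0. At these 3 genes the strongest conservative summit lay in an intron, upstream of an internal TSS. Pgi, Pfk and Tpi, enzymes of earlier steps, had no conservative peak, and neither had the mutase gene Pglym78, of a later step.

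The sequences under the strongest conservative summit of each of these 4 genes are shown because they surround the positions where that list places its summits. They were read from the RefSeq release 6 genome (dm6) in the direction of transcription of each gene. Capitals mark matches to 9 short words searched on both strands, listed with their counts in the next paragraph. For Gapdh2 the stretch is chrX:15867830-15868128 on the plus strand, with the summit at base 150. For Eno it is chr2L:1727904-1728004 on the minus strand and for PyK chr3R:22368991-22369091 on the plus strand, both with the summit at base 51. For Pgk, whose summit is 4 bp from an exon, only the intronic bases chr2L:2748793-2748846 on the minus strand are shown, again with the summit at base 51.
Gapdh2: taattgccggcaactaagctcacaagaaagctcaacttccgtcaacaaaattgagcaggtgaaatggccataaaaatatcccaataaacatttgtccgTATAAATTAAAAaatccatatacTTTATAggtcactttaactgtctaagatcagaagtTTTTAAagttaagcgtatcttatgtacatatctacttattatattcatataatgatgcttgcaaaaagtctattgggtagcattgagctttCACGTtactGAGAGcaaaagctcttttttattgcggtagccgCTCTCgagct
Eno: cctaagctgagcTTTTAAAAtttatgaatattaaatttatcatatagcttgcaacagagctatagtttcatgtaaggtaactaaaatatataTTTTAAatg
Pgk: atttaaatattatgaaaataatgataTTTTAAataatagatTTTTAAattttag
PyK: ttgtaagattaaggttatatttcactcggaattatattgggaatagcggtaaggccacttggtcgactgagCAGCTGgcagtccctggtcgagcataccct

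The words searched were TATCGATA (the DRE word), CACGTG (an E-box word), CAGCTG (another E-box word), TCAAGGTCA (the word of ERR sites), GAGAG (the GAGA word), TAATTA (the homeodomain word), TATAAA (the TATA word), the AT-rich word TTAAAA and ACGTG (the core of hypoxia response elements). ACGTG is also part of CACGTG. In the 101 bp centred on the summit, Gapdh2 had TTAAAA and TATAAA, and the main summits of Eno and Pgk had TTAAAA. PyK had CAGCTG, whose match began 21 bp from the summit toward the TSS. That match depended on the summit, which was 241 bp upstream of the TSS in this list and 306 bp in replicate 2. The 101 bp centred on the replicate 2 summit do not reach it. TTAAAA stood in 34.9% of the 3216 conservative summit windows, TATAAA in 21.8% and CAGCTG in 3.86%. In the 299 bp shown for Gapdh2, GAGAG and ACGTG also occurred, words found in 35.0% and 22.2% of conservative windows of that length. None of these member windows held TATCGATA, CACGTG or TCAAGGTCA, which were in 1.65%, 0.746% and 0.0311% of summit windows. None of the 9 gene-start promoters, from 250 bp upstream to 50 bp downstream, held these 3 words either, against 9.36%, 4.23% and 0.122% of all 13968 promoters. TTAAAA was in 6 of the 9 promoters and in 53.4% of all. A word match is no site, and its absence says only that these letters are missing from the window.

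Base composition differed between the member summits. The GC content of the 101 bp at the summit was 22.8% at Gapdh2, 23.8% at the main Eno summit and 28.7% at Pgk, against a median of 31.7% over all conservative peaks. It was 38.6% at the second Eno summit and 46.5% at PyK. The Gapdh2 window was poorer in GC than all but 8.21% of conservative windows, and PyK lay above 87.9% of them. At 4 of the 5 summits as the conservative list places them, the centre was poorer in GC than the mean of the windows 300 bp to each side, by values of 22.8% and 33.7% at Gapdh2, 23.8% and 40.1% at the main Eno summit, 28.7% and 39.1% at Pgk, and 38.6% and 52.5% at the second Eno summit. Over all conservative peaks the medians were 31.7% and 43.6%. PyK was the exception, with 46.5% and 42.1%. Its summit in the list of replicate 2 lay 65 bp away from that of replicate 1, and the GC content there was 23.8%, against 46.5% at the replicate 1 summit. The second Eno peak depended on the summit too, with 52.5% at the replicate 1 summit and 45.5% at the replicate 2 summit. At Gapdh2, Pgk and the main Eno peak the replicate summits stayed between 20.8% and 26.7%.

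Gapdh2 (FBgn0001092) lies at chrX:15868145-15869661 on the plus strand. Its conservative peak covered chrX:15867821-15868130, 310 bp that end before the gene begins, and its summit was 166 bp upstream of the gene start. The nearest TSS of another gene, CG16952, was 2204 bp from the summit, so the peak was in the promoter window of Gapdh2 alone. The signal of 1305.9 was higher than that of 99.4% of conservative peaks, and the same peak had rank 19 of 5675 in the optimal list. In replicate 1 alone the signal was 907.4, rank 7 of 4617, with the summit 165 bp upstream. In replicate 2 alone it was 387.6, rank 57 of 2737, with the summit 162 bp upstream. Both replicates thus put the summit within 3 bp of the same base and the peak in the top 3% of their own list. The global IDR was 1e-05 in all 4 rankings, the smallest value the files hold. No other summit in Gapdh2 passed the threshold: in the ranking behind the conservative list the gene body held 2 further summits, with signals of 25.0 and 12.3, both in exons.

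Gapdh1 (FBgn0001091) lies at chr2R:7791901-7793380 on the minus strand and had no peak in any of the 4 thresholded lists. In the ranking behind the conservative list it had 3 summits. The highest had a signal of 34.0, rank 14368 of 90968, and lay in UTR sequence of the gene, 62 bp upstream of the downstream one of its TSSs, with an IDR of 0.780. This window was shared with PolZ1, whose TSS was 333 bp away. The other 2 Gapdh1 summits were in an exon, with signals of 27.5 and 23.0. In replicate 1 alone the highest Gapdh1 summit had a signal of 29.7, with an IDR of 0.260. A weaker Gapdh1 summit of replicate 1, in an exon with a signal of 13.3, had a lower IDR of 0.0367, also outside the threshold. Replicate 2 had only 1 Gapdh1 summit, in an exon 566 bp downstream of a TSS, with a signal of 19.5 and an IDR of 0.728.

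Side by side in the same rankings, the highest promoter signal was 1305.9 at Gapdh2 and 34.0 at Gapdh1 over both replicates. In replicate 1 it was 907.4 at Gapdh2 and 29.7 at Gapdh1. In replicate 2 it was 387.6 at Gapdh2, and Gapdh1 had no promoter summit at any rank. Gapdh2 stood higher in each replicate. The pair was chosen for this difference, and conservative peaks are those that recurred in both replicates. The agreement of the replicates is therefore a description and no support. Within 2000 bp of the gene start, the ranking of both replicates held 4 summits at Gapdh2 and 5 at Gapdh1. Apart from the promoter peak, those near Gapdh2 ran between 12.3 and 38.4, and those near Gapdh1 between 16.6 and 34.0, so outside that peak the surroundings overlapped.

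**Figure D1:**
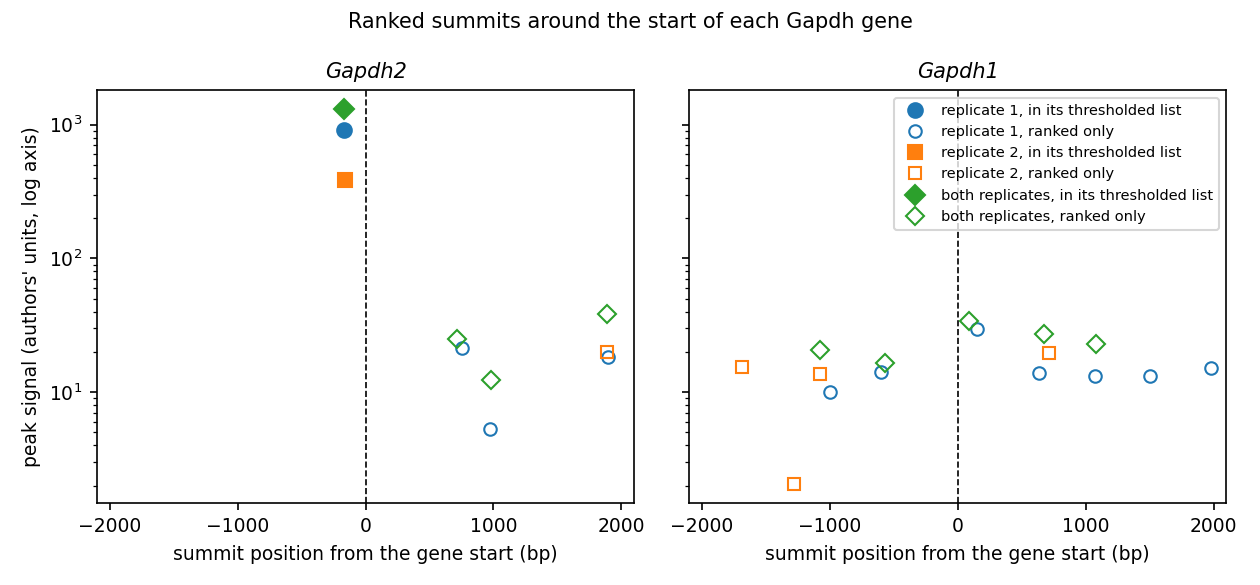
Ranked summits within 2000 bp of the gene start of Gapdh2 (left) and Gapdh1 (right), plotted by distance from the gene start in the direction of transcription (bp) and by peak signal (authors' units, log axis). Filled points are in the thresholded list of their ranking and open points are ranked only: Gapdh2 had 1 filled summit in each ranking, 162 to 166 bp upstream, and Gapdh1 had none above 34.0.

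The proteins of the pair are close to identical and their coding sequences less so, while their promoters matched far less. The proteins matched at 323 of 332 residues (97.3%) and the coding sequences at 884 of 996 bases (88.8%). Their promoters, aligned end to end, matched at 163 of 342 aligned positions (47.7%). The Gapdh2 promoter matched those of the 7 other genes at 42.2% to 51.0%, a range that includes its match with Gapdh1. The Gapdh2 promoter had a GC content of 35.5% and that of Gapdh1 28.2%, against a median of 37.9% over all promoters. TTAAAA and TATAAA were in both promoters, GAGAG and ACGTG only in that of Gapdh2, and TAATTA only in that of Gapdh1. GAGAG was in 29.8%, ACGTG in 23.3% and TAATTA in 20.5% of all promoters.

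In the conservative list, 4 of the 9 genes (44.4%, 95% Wilson interval 18.9% to 73.3%) had a promoter summit: Gapdh2, Pgk, Eno and PyK. Of all protein-coding genes, 14.6% did. Since the genes were chosen with these peaks known, the count is given beside the background and nothing is read from it. Counting summits in the gene body as well left the number at 4, against 18.9% of all genes. In the optimal list Tpi and Pglym78 were added, for 6 of 9 genes (66.7%), against 21.9% of all genes at promoters and 27.2% with gene bodies. Replicate 1 alone gave 5 of 9, the 4 conservative genes and Pglym78, against 18.6% and 23.2% of all genes. Replicate 2 alone gave the 4 conservative genes, against 13.2% and 17.0%. At any rank of the ranking of both replicates, 8 of 9 genes had a promoter summit, all but Pfk, against 69.3% of all genes. The intervals cover counting error only.

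**Figure D2:**
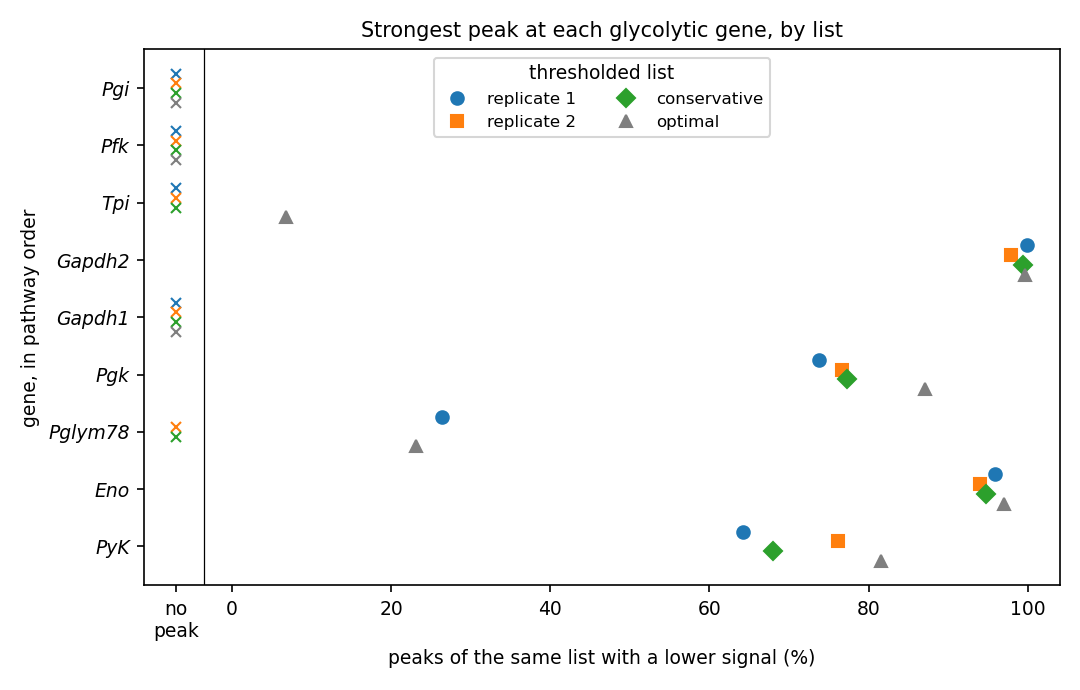
Position of the strongest peak at each gene (rows, in pathway order) within each thresholded list, as the percentage of peaks of that list with a lower signal. Crosses at the left mark a list with no peak at the gene: Gapdh2 sits at 97.9% to 99.8% in all 4 lists and Eno at 93.9% to 97.0%, while Pgi, Pfk and Gapdh1 have no peak in any list.

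Of the enzymes before the Gapdh step, Pgi and Pfk had no peak in any thresholded list and Tpi only an optimal one. Phosphoglucose isomerase (Pgi, FBgn0003074, chr2R:8910900-8914069, minus strand) turns glucose phosphate into fructose phosphate. Its best summit over both replicates had a signal of 64.0, 91 bp upstream of a TSS. Its IDR was 0.0111 in the ranking of both replicates and 0.603 in the pooled ranking, where the same summit was thus far from the threshold. In replicate 1 the best Pgi summit had a signal of 36.6 with an IDR of 0.549, and in replicate 2 a signal of 30.5 with an IDR of 0.0383, where the promoter window of lin was shared. The replicates did not place it at the same spot, 66 bp downstream of the gene start in replicate 1 and 44 bp upstream in replicate 2.

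Phosphofructokinase (Pfk, FBgn0003071, chr2R:10109740-10117457, plus strand) catalyses the committed step of the pathway. It had no promoter summit in the ranking of both replicates or in that of replicate 2. Its highest summit over both replicates, with a signal of 31.8, lay in an exon 5598 bp from the nearest TSS, and replicate 2 had one at 5564 bp with a signal of 16.9. The highest Pfk promoter summit of replicate 1 had a signal of 23.1, and that of the pooled ranking a signal of 45.5 and an IDR of 0.206. Triose phosphate isomerase (Tpi, FBgn0086355, chr3R:30132981-30134599, minus strand) interconverts the products of the split sugar. It was in the optimal list alone, with a summit 225 bp upstream of its gene start, a signal of 49.0 and rank 5288 of 5675. Its IDR was 0.00864 in the pooled ranking and 0.0600 in that of both replicates. The replicates placed the Tpi summit at 230 and 225 bp upstream, with signals of 28.6 and 20.8 and an IDR of 0.0771 and 0.243, so neither passed alone.

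Phosphoglycerate kinase (Pgk, FBgn0250906, chr2L:2746880-2753068, minus strand) makes the first ATP of the pathway. Its conservative peak, only 117 bp wide against a median of 330 bp, had a signal of 215.0 and rank 732 of 3216. The summit lay in an intron 309 bp upstream of the last of the gene's annotated TSSs. In replicate 1 the signal there was 93.0 at 319 bp upstream, rank 1209 of 4617, and in replicate 2 it was 108.7 at 313 bp upstream, rank 639 of 2737. The peak was thus at nearly the same base in both replicates, above 73.8% of the peaks of replicate 1 and 76.7% of those of replicate 2.

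Pgk was the only one of the 9 genes with summits that passed the IDR threshold in a ranking but were missing from the thresholded list. In the ranking of both replicates there were 3 of them, of 83 such peaks genome-wide, and the sources used here do not say why. The strongest had a signal of 226.0 and an IDR of 1.29e-05, above the conservative Pgk peak, and lay in an intron 280 bp upstream of another internal TSS. In the replicates its signals were 114.1 and 114.9, both 263 bp upstream. The second, with a signal of 152.1, was 999 bp into the gene and within 500 bp of a TSS of Bacc. The third, with a signal of 108.4 and an IDR of 0.00211, was 25 bp upstream of the gene start and within the Bacc promoter window too. The second passed in both replicates, with signals of 70.2 and 86.5. The third passed in replicate 1, with a signal of 85.7, while the nearest summit of replicate 2 had a signal of 31.0 and an IDR of 0.0165. With these peaks, Pgk would carry 4 summits along its length in the conservative set.

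Phosphoglycerate mutase (Pglym78, FBgn0014869, chr3R:29148248-29149901, plus strand) moves the phosphate within phosphoglycerate. It had 2 optimal peaks, with signals of 63.0 and 4.62, at 32 bp and 119 bp downstream of a TSS. In replicate 1 alone it had a peak with a signal of 47.3 and an IDR of 0.00235. In replicate 2 the highest summit had a signal of 18.0 and an IDR of 0.710, far from the threshold. The Pglym78 peaks were thus in the list of replicate 1 and in that of the pooled reads, and not in that of replicate 2. All these summits were also within 500 bp of the divergent TSS of CG11882, so the promoter cannot be given to Pglym78 alone.

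Enolase (Eno, FBgn0000579, chr2L:1724768-1729636, minus strand) forms phosphoenolpyruvate. Its main conservative peak had a signal of 487.2, rank 169 of 3216, and an IDR of 1e-05. The summit lay in an intron, 237 bp upstream of the last of its 3 annotated TSSs and 778 bp from the nearest TSS of another gene, Rrp40. In replicate 1 the signal was 255.6 at rank 190, and in replicate 2 it was 233.0 at rank 166, with summits 238 and 216 bp upstream of that TSS. A second Eno peak stood 168 bp upstream of the gene start, with a signal of 96.6, rank 2256 of 3216 and an IDR of 0.00310. It was 83 bp from the TSS of CG31937, a neighbour in the promoter window, and had signals of 40.8 in replicate 1 and 58.3 in replicate 2. Within Eno the internal peak was therefore higher than the peak at the gene start in each replicate and over both.

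Pyruvate kinase (PyK, FBgn0267385, chr3R:22367536-22372746, plus strand) catalyses the last step and makes ATP. Its conservative peak had a signal of 172.5, rank 1029 of 3216, and an IDR of 8.19e-05, in an intron 241 bp upstream of the second TSS. Replicate 1 gave a signal of 76.5 at rank 1655 and replicate 2 a signal of 106.4 at rank 653, with summits 241 and 306 bp upstream. A further peak 144 bp upstream of the gene start was in the optimal list and in replicate 1 but not in replicate 2. Its signals were 85.0 in the optimal list and 61.7 in replicate 1, and in the ranking of replicate 2 the summit there had 11.2 with an IDR of 0.923. That summit was 19 bp from the TSS of Polr3F, an RNA polymerase III subunit gene, in the optimal list.

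**Figure D3:**
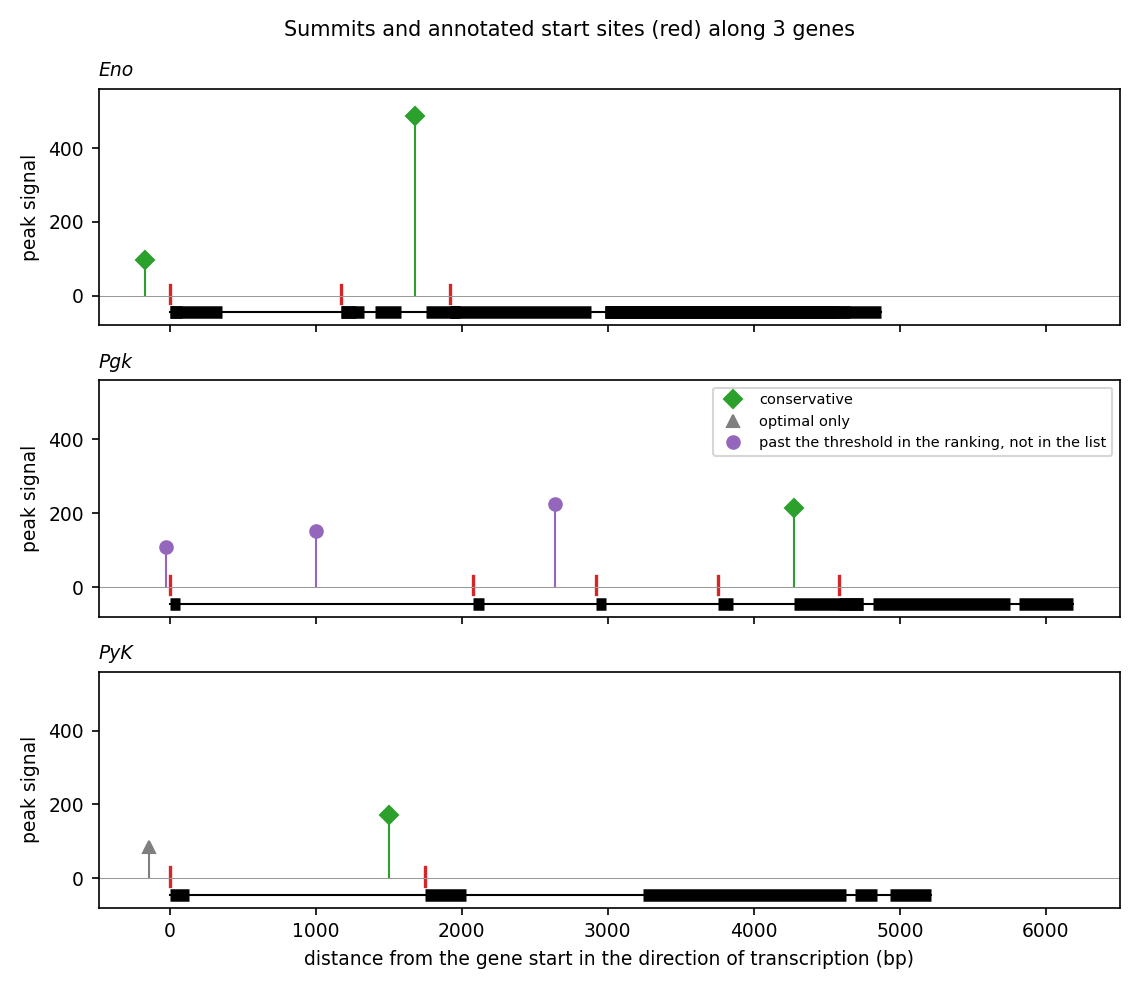
Summits (stems, height is peak signal in authors' units) along Eno, Pgk and PyK by distance from the gene start (bp), with annotated TSSs as red ticks and exons as black boxes. The strongest conservative summit of each gene, 487.2, 215.0 and 172.5, lies inside the gene and 237 to 309 bp upstream of an internal TSS, and Pgk has 3 more summits (circles) past the threshold in the ranking that are not in the list.

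All 5 conservative summits lay upstream of the gene's nearest TSS, between 166 and 309 bp from it. Most promoter summits did: over all protein-coding genes, 86.8% of the 2215 pairs of a conservative promoter summit and its gene had the summit upstream. Of the 5 member summits, 3 lay upstream of a TSS and inside the gene itself, in introns, as did 17.1% of all pairs. When only the TSS at the gene start was used, Gapdh2 and Eno kept a promoter summit, while Pgk and PyK did not. The members nearest the limits were few. By IDR in the ranking of both replicates, the second Eno peak was just inside with 0.00310 and Pgi just outside with 0.0111, against 0.603 for the same Pgi summit in the pooled ranking. By distance over all rankings, a Pfk summit of the pooled ranking was just inside at 491 bp, with a signal of 10.7, and an Eno summit of replicate 1 just outside at 506 bp, with a signal of 9.96.

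Set against all genes with a promoter summit in the ranking of both replicates, 7 of the 9 genes were above the median. Gapdh1 was below it and Pfk had no value. The genes were chosen from these data, so this count is a description. Taking the highest promoter summit per gene in the ranking of both replicates, 9684 genes had one, with a median signal of 36.7 and an upper quartile of 70.1. Gapdh2 ranked 20 of these genes, Eno 155, Pgk 591 (through the strongest summit that is missing from the list) and PyK 833. Pgi ranked 2675, Pglym78 2712, Tpi 3526 and Gapdh1 5247. In replicate 1, where 9807 genes had a promoter summit, Gapdh2 ranked 7 and Gapdh1 3926, there above the median, with a signal of 29.7 against 24.6 for the median gene. Pfk had a value in replicate 1, 23.1, below that median. In replicate 2, where 8954 did, Gapdh2 ranked 63, and Gapdh1 and Pfk were absent. Pglym78 was just below the median there, with 17.96 against 17.98. The order Gapdh2, Eno, Pgk, PyK was the same in each replicate alone. The order of Pgi, Tpi and Pglym78 was not, since Pglym78 led them in replicate 1 and Pgi in replicate 2.

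**Figure D4:**
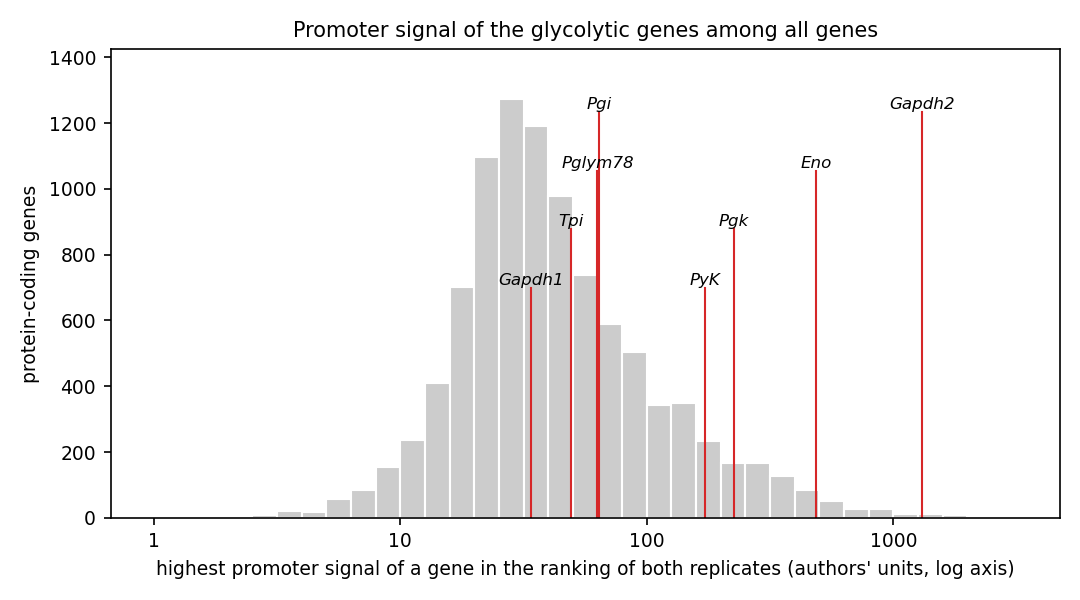
Distribution over 9684 protein-coding genes of the highest promoter signal per gene in the ranking of both replicates (x, authors' units, log axis; y, number of genes), with the glycolytic genes as red lines whose height only spaces the names. Gapdh2, Eno, Pgk and PyK stand in the upper tail, Pgi, Pglym78 and Tpi between the median of 36.7 and the upper quartile of 70.1, and Gapdh1 below the median. Pfk had no promoter summit and is not drawn.

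Among the 5 conservative peaks of these genes, the replicates differed most at Gapdh2. The signal of replicate 1 over that of replicate 2 was 2.34 at Gapdh2, 1.10 at the main Eno peak, 0.855 at Pgk, 0.719 at PyK and 0.699 at the second Eno peak. Over 3177 conservative peaks with a peak in both rankings the median ratio was 1.23, and 5% of peaks were below 0.645 and 5% above 2.58. Gapdh2 was above 92.6% of these peaks and inside that range. Outside the conservative list some differed more and some less. Pglym78 had 47.3 in replicate 1 and 18.0 in replicate 2. The PyK summit at the gene start had 61.7 in replicate 1 and 11.2 in replicate 2. Both passed the threshold in replicate 1 and not in replicate 2, so a higher signal in replicate 1 is built in. Tpi had 28.6 in replicate 1 and 20.8 in replicate 2. The strongest Pgk summit missing from the list had 114.1 in replicate 1 and 114.9 in replicate 2. Among the 100 conservative peaks with the highest summed signal, 1 had a higher ratio than Gapdh2. The lists of the replicates were made separately, so a ratio also holds any difference of scale between them. Whether such a difference is the same for all peaks is unknown. The summits of the replicates were 3 bp apart at Gapdh2 and 65 bp apart at PyK, against a median of 22 bp.

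Other genes of central carbon metabolism, taken from a list of 47 symbols of which 45 matched the annotation, had a conservative promoter summit in 19 cases (42.2%, 95% Wilson interval 29.0% to 56.7%), against 14.6% of all genes. The optimal list gave 22 of 45, replicate 1 gave 23 and replicate 2 gave 13, against 21.9%, 18.6% and 13.2% of all genes. By signal the first were GlyP, glycogen phosphorylase, with 438.2 and Hex-A, a hexokinase, with 303.4. Both had the summit upstream of the TSS, at 160 and 158 bp. Pdp, the phosphatase of pyruvate dehydrogenase, had 215.4, the nuclear receptor gene ERR had 196.9 and Ldh, lactate dehydrogenase, had 183.7. Then came bigmax, the partner of the sugar sensor Mondo, with 154.1, Pgm1, phosphoglucomutase, with 149.2, PCB, pyruvate carboxylase, with 144.3, Pfrx, a regulator of fructose bisphosphate levels, with 144.0, and Pdhb, a pyruvate dehydrogenase subunit, with 129.5. The windows of Pdp, ERR, bigmax and Pdhb were shared with Rab39, Atg18a, Hmu and alpha-Man-Ib, and the summit assigned to ERR lay in the UTR of Atg18a, 10 bp from its TSS and 196 bp from that of ERR. None of these reached the signal of the Gapdh2 peak or of the main Eno peak. When each summit was given to its nearest TSS only, 17 of 45 had one, and the share of all genes was not taken that way. This list too was chosen with results of these data known. Its counts and interval are therefore no test, and nothing is read from them.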

How the data were processed

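Peaks were analysed as the authors deposited them, on dm6 per the file notes. No aligner or caller is named (not given in the sources used here). The deposited signal is the authors' value per peak, and the deposited rankings give the −log10 of the global IDR. A summit was the peak start plus the deposited offset. Of the 2 series rankings, 16 columns of per-replicate values were not used. Peak ends fitted the lengths of the 7 arms of the release 6 reference. The 2249 peaks off these arms, counted over all 8 lists, were not checked. Genes came from Ensembl release 115, where 8 of the 9 symbols matched exactly and Pyk is written PyK. A replicate signal was taken from the thresholded or ranked list of that replicate. No file gave read counts, so depth is unknown and precision rests on 2 replicates of 1 group.

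The genes, the metabolism list and the words were chosen with earlier results of these data known. All 9 genes are named, up to 10 other metabolic genes by conservative signal, and genes that share or lie nearest a member's peak. Percent identities came from global alignments of reference sequence, and intervals are 95% Wilson intervals. On simulated data 200 of 200 summits, planted upstream of a TSS and inside the 500 bp window, were recovered at their gene. Recovery followed from the counting rule, so it checks the code only. It says nothing about which gene a summit in a shared window belongs to. Tools were biopython 1.88, scipy 1.17.1, pandas 2.3.3, numpy 2.4.6 and matplotlib 3.10.9 under Python 3.11.15. Alternatives covered the list, the replicate, the IDR threshold, the promoter window, peak overlap, the TSS set and the GC window.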

Additional observations from a re-analysis of the deposited data

How the results depend on the processing

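Of 38 alternatives, 7 moved a value by more than its tolerance, which was 1.5 times for a count and 1 SD between the replicates for a percentage or a distance. The median GC content over the member summits was the exception, since its tolerance was the SD across those summits, 10.2. Its change from 28.7% to 32.8% in the wider window was inside that tolerance. The number of genes with a promoter summit, 4 of 9, was 2 (Gapdh2 and Eno) when the summit had to lie within 200 bp, and 2 (the same genes) when only the TSS at the gene start was used, an alternative chosen after seeing the data. It was 4 without replicate 1 and 5 without replicate 2, against 13.2% and 18.6% of all genes. At an IDR of 0.001 it was 4 and at 0.05 it was 5. The share of all genes was not taken at 200 bp, at the gene-start TSS or at these IDR limits. Those counts therefore stand without a background. With gene bodies included the number was 4 without replicate 1 and 5 without replicate 2, against 17.0% and 23.2% of all genes. For the other metabolic genes it ranged from 13 of 45 (28.9%) without replicate 1 to 23 (51.1%) without replicate 2. The shares of all genes there were 13.2% and 18.6%. The Gapdh2 peak was above 97.9% to 99.8% of its list with 1 replicate left out, the lower value without replicate 1, and its summit 162 to 165 bp upstream. GC content in windows of 100 bp to each side was higher at Gapdh2 (29.4%), the main Eno summit (31.3%) and Pgk (32.8%), all below the median of 34.8% over all peaks. No paired analysis was possible because the labels give 1 group. Without read counts, a gene without a peak was below what these lists hold, which does not show that the protein was absent there.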
